A study of Mus musculus with 48 samples.

Results

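The 5 genes IGJ, XBP1, PRDM1, IRF4 and SDC1, all of the antibody-secreting programme, were followed across early mouse B-cell development with and without Ikaros. They were chosen by name, not by their values, and each matched 1 row of the 21025 gene models in the deposited tables. IGJ is the J chain gene, now named Jchain.

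The question was how loss of Ikaros, a DNA-binding zinc finger protein and the product of Ikzf1, changes gene expression at successive early B-cell stages in C57BL/6 mice. RNA was sequenced from 30 libraries in 11 groups, and 18 chromatin immunoprecipitation samples of the series were not analysed here. Levels were given in RPKM, that is, reads scaled to the length of the gene model and to the depth of the library, so levels of different genes can be set side by side per length. Differences are on the scale of log2(RPKM + 1).

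The Ikzf1-deleted pro-B cells were Ikzf1(fl/-) Cd79a(Cre/+), and their controls were Ikzf1(fl/+) Cd79a(Cre/+). Both genotypes carry the Cre recombinase under a B-lineage gene and a floxed allele, so a floxed copy can be removed in the controls as well. Deleted and control cells were taken as total pro-B cells, as c-Kit-high pro-B cells and, with Rag2(-/-) added to both genotypes, as Rag2-null pro-B cells, with 2 libraries a group. Pre-B cells were wild type, with 2 libraries. The pre-pro-B cells were Ebf1(-/-) in all groups, and carried the Ikzf1 hairpins Ik4056 or Ik2709, the control hairpin Ren713 or an empty vector, with 4 libraries each. The labels give no ages and do not say whether libraries of a group came from separate animals or cultures, and the p-values therefore reflect only the spread between libraries, some or all of which may be technical.

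Plasma cells and plasmablasts are the B-lineage cells that secrete antibody. IRF4 and PRDM1 (also known as Blimp-1) are transcription factors that drive their formation, and XBP1 is the transcription factor of the unfolded protein response that enlarges their secretory apparatus. IGJ encodes the J chain, which joins antibody units into polymeric IgM and IgA, and SDC1 encodes syndecan-1 (CD138), the surface proteoglycan by which plasma cells are usually recognised. Several of these genes also have earlier roles: IRF4 acts with IRF8 in pre-B cells, where it promotes light-chain rearrangement, and syndecan-1 is also found on early B-lineage cells.

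Ikaros binds DNA at sites with the core GGGAA, so this word and its reverse complement TTCCC were searched in the RefSeq promoters of the members, from 250 bases before to 50 bases after the start site in GRCm38.p6. All 5 members had 1 promoter entry each. The promoters of IGJ, XBP1 and SDC1, the 3 members with a fitted difference in all 4 cell populations with lowered Ikzf1, are printed 5′ to 3′. Matches to either word are in capitals.
IGJ, chr5:88527848-88528147, minus strand: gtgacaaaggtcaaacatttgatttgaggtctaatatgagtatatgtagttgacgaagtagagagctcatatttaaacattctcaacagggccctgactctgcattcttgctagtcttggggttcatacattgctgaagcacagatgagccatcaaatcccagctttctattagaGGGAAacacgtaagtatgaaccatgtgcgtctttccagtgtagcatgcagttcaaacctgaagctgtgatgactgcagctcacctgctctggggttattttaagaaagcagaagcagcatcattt
XBP1, chr11:5520391-5520690, plus strand: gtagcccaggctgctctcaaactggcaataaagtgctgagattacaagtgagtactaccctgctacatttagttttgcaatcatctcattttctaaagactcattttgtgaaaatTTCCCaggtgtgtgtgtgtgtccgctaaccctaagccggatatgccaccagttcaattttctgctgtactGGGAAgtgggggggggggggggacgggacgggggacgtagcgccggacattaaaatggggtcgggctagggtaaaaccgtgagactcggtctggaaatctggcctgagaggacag
SDC1, chr12:8771146-8771445, plus strand: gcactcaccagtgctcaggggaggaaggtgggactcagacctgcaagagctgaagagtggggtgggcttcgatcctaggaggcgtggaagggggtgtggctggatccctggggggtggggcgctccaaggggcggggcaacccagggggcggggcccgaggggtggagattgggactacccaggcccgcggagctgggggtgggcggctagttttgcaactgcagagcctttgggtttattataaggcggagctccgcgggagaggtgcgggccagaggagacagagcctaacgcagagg
The IGJ promoter held 1 match, beginning 75 bases before the start site, and the XBP1 promoter held 2, beginning 135 and 65 bases before it. The SDC1 promoter held none. Of the others, PRDM1 held 4 (chr10:44458699-44458998, minus strand) and IRF4 none (chr13:30748983-30749282, plus strand). Of all 32851 promoters of this length, 62.7% held at least 1 match, 27.1% held 2 or more and 8.8% held 3 or more. A match is therefore common, while a count such as that of PRDM1 is less so. The counts are given as a description.

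The implied depth was 2.3 to 36.2 M reads per library. Ikzf1 itself had 64.5 and 86.0 RPKM in c-Kit-high deleted cells, against 101 and 124 RPKM in their controls. It had 45.3 and 48.9 RPKM in total pro-B deleted cells, against 59.2 and 56.4 RPKM in their controls. It had 39.9 and 36.7 RPKM in Rag2-null deleted cells, against 62.3 and 56.2 RPKM in their controls. The deleted libraries were lower each time, but the labels do not name the exons removed, so the reads left are no measure of deletion. In pre-pro-B cells the 8 hairpin libraries had 23.7 to 60.6 RPKM of Ikzf1, below the 106 to 145 RPKM of the 8 controls. Pax5, the transcription factor of B-lineage commitment, averaged 75.8 to 319 RPKM by group in the pro-B and pre-B libraries, and 0.0664 to 0.114 RPKM by group in the Ebf1(-/-) pre-pro-B libraries. Their Ebf1 gene model still held a mean of 20.5 to 28.8 RPKM by group.

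The 5 genes did not move as a block when Ikzf1 was lost. IGJ fell in c-Kit-high pro-B cells and in the knock-down, XBP1 fell in all 3 pro-B populations, PRDM1 rose in c-Kit-high and Rag2-null pro-B cells, IRF4 rose in total and c-Kit-high pro-B cells, and SDC1 fell in the knock-down. Of the 5 members, 1 rose and 1 fell in total pro-B cells, where 23.4% of all genes tested were called. In c-Kit-high pro-B cells 2 rose and 2 fell, where 17.2% of genes were called. In Rag2-null pro-B cells 1 rose and 1 fell, where 22.3% of genes were called. In the knock-down 3 members could be tested, of which 2 fell and none rose, where 19.4% of genes were called. PRDM1 and IRF4 were under the filter there, which asked for 1 RPKM in at least 2 libraries. A call here is a Benjamini-Hochberg adjusted p under 0.05 from limma over all genes tested, and every adjusted p in the text is of this kind. The median difference of the tested members was -0.03 in total pro-B, 0.03 in c-Kit-high, -0.09 in Rag2-null and -1.21 in knock-down cells, against 0.03, 0.03, 0.06 and 0.01 over all genes tested. In bulk libraries, fewer cells of a type and less RNA per cell cannot be told apart.

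**Figure D1:**
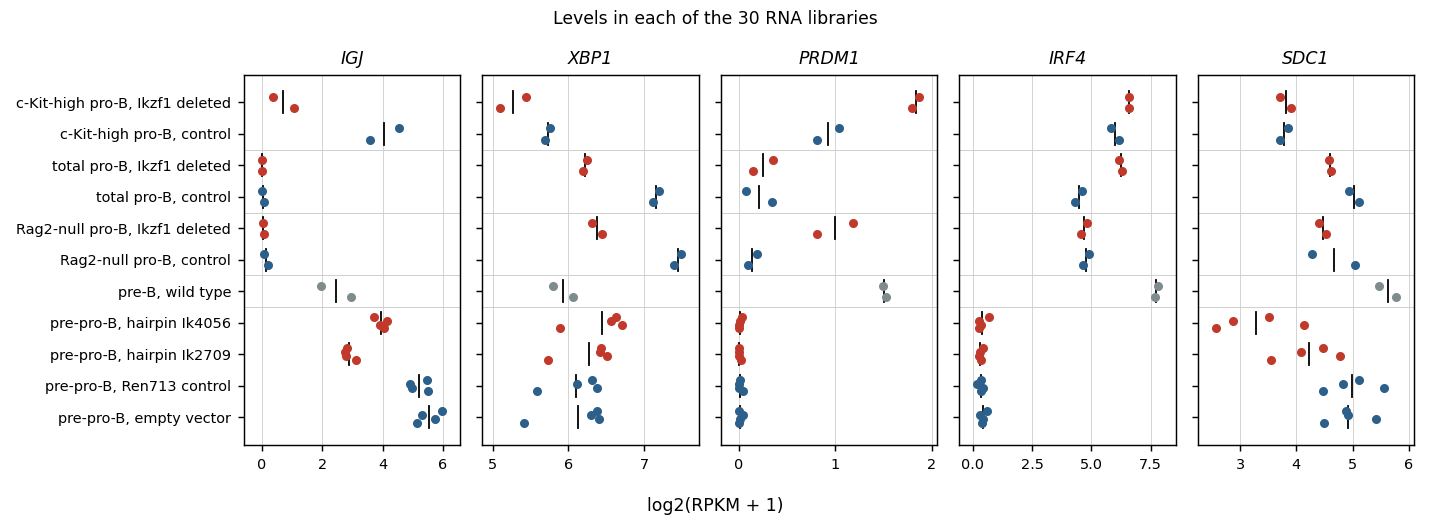
Level of each member in each of the 30 RNA libraries, as log2(RPKM + 1) on the horizontal axis, with 1 row per group. Points are libraries (red, Ikzf1 deleted or hairpin; blue, control; grey, wild-type pre-B) and black ticks are group means. IGJ is highest in the pre-pro-B controls and listed at 0 in both total pro-B deleted libraries, and IRF4 is highest in pre-B cells.

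**Figure D2:**
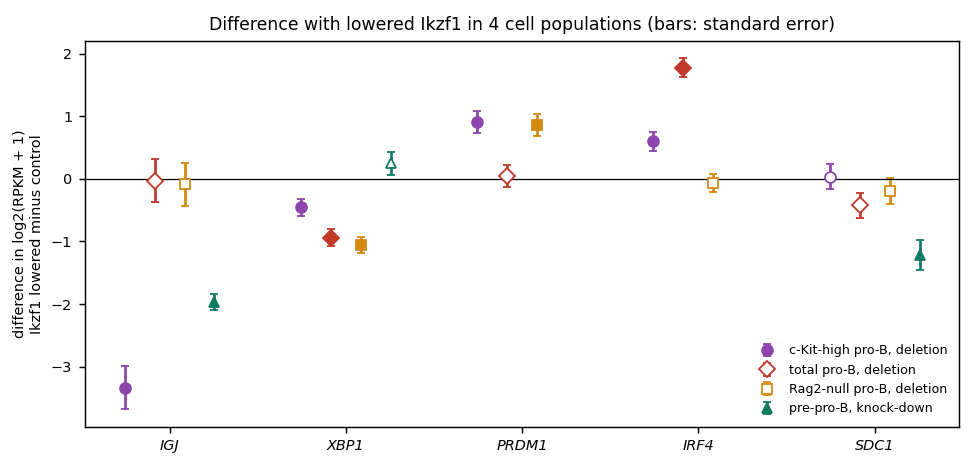
Difference in log2(RPKM + 1) with Ikzf1 lowered minus control for each member in 4 cell populations, with standard errors as bars. Filled symbols passed an adjusted p of 0.05 and open ones did not. The lowest point is IGJ in c-Kit-high pro-B cells, at -3.33, and the highest is IRF4 in total pro-B cells, at 1.78.

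IRF4, the earliest acting of the regulators, had 70.9 and 78.0 RPKM in total pro-B deleted cells, against 23.4 and 18.9 RPKM in controls. Both deleted libraries lay far above both controls, and the difference was 1.78 ± 0.15 (SE, adjusted p = 4.58e-06), rank 115 of 11937 genes by p. In c-Kit-high cells IRF4 had 96.2 and 94.6 RPKM in deleted libraries, against 56.0 and 70.3 RPKM in controls. The groups did not overlap and the difference was 0.60 ± 0.15 (adjusted p = 0.0152), but leaving out either deleted library or control 1 took the adjusted p to between 0.0673 and 0.102. In Rag2-null cells IRF4 had 27.6 and 22.8 RPKM in deleted libraries, against 28.7 and 24.1 RPKM in controls. These groups overlapped, and the difference of -0.07 ± 0.15 did not pass (adjusted p = 0.823, interval -0.39 to 0.26). In pre-pro-B cells IRF4 was low throughout, at 0.183 to 0.586 RPKM with the Ikzf1 hairpins and 0.138 to 0.490 RPKM in the controls, or 12 to 55 implied reads.

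The effect of deletion on IRF4 differed between the pro-B populations. It was smaller in c-Kit-high than in total pro-B cells by -1.18 ± 0.21 (adjusted p = 0.00662), and smaller in Rag2-null than in total pro-B cells by -1.84 ± 0.21 (adjusted p = 0.000172). Rag2-null and c-Kit-high cells differed by -0.66 ± 0.21, which did not pass (adjusted p = 0.0880). Of the 5 members, 2 had a different effect in c-Kit-high than in total pro-B cells, both with the more negative effect in c-Kit-high cells, where 6.70% of genes were called. Of the 5, 1 differed between Rag2-null and total pro-B cells, where 13.1% of genes were called, and 1 of 5 between Rag2-null and c-Kit-high cells, where 6.33% were called. These contrasts share the total pro-B or c-Kit-high libraries. IGJ is 1 of the 2 members called first, and the 1 called between Rag2-null and c-Kit-high cells. It was nearly absent from total and Rag2-null controls, so its calls cannot show that the effect differs.

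PRDM1, which shuts down the B-cell identity programme in plasma cells, was low in all 30 libraries. In c-Kit-high cells it had 2.65 and 2.47 RPKM in deleted libraries, against 1.06 and 0.756 RPKM in controls. The groups did not overlap, and the difference was 0.91 ± 0.18 (adjusted p = 0.00372). The shallow control 2 rested on 9 implied reads of PRDM1, and the call was lost with a pseudocount of 0.1 (adjusted p = 0.0781) and with the c-Kit-high libraries fitted alone (0.0566). In Rag2-null cells PRDM1 had 1.28 and 0.757 RPKM in deleted libraries, or 222 and 132 implied reads, against 0.137 and 0.0651 RPKM in controls, or 21 and 9 implied reads. Both deleted libraries were above both controls by 0.86 ± 0.18 (adjusted p = 0.00443), although without deleted library 1 the adjusted p was 0.0609. Of the Rag2-null libraries only deleted library 1 reached 1 RPKM, so PRDM1 passed the filter through c-Kit-high and pre-B libraries. It could not be tested with the Rag2-null libraries fitted alone. PRDM1 in total pro-B cells had 0.282 and 0.103 RPKM in deleted libraries, against 0.0504 and 0.266 RPKM in controls. These groups overlapped, with a difference of 0.04 ± 0.18 (adjusted p = 0.906).

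The tests of a difference in effect on PRDM1 did not pass in the fit of the pro-B and pre-B libraries, and their calls depended on the setting. Relative to total pro-B cells, the effect was larger by 0.86 ± 0.25 in c-Kit-high cells (adjusted p = 0.0656) and by 0.82 ± 0.25 in Rag2-null cells (adjusted p = 0.0542). Both passed with all libraries in 1 fit (adjusted p = 0.000462 and 0.000452) and without trended, robust moderation (0.0445 and 0.0362). Without c-Kit-high control 1 the c-Kit-high difference passed (adjusted p = 0.0490), as did the Rag2-null difference without deleted library 2 (0.0423). In pre-pro-B cells PRDM1 had 0 to 2 implied reads in each hairpin library and 0 to 4 in each control, so no comparison was made there.

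XBP1 fell in all 3 pro-B populations. In total pro-B cells it had 74.7 and 72.2 RPKM in deleted libraries, against 145 and 138 RPKM in controls. In Rag2-null cells it had 78.6 and 86.4 RPKM in deleted libraries, against 178 and 168 RPKM in controls. Both times the deleted libraries lay below both controls, with differences of -0.94 ± 0.13 (adjusted p = 0.000204) and -1.06 ± 0.13 (adjusted p = 9.11e-05). In c-Kit-high cells XBP1 had 42.4 and 33.3 RPKM in deleted libraries, against 53.1 and 50.8 RPKM in controls. The groups did not overlap and the difference was -0.46 ± 0.13 (adjusted p = 0.0286), but it was the least secure of these calls. Leaving out deleted library 2, control 1 or control 2 took its adjusted p to 0.226, 0.0959 and 0.0783, a fit of the c-Kit-high libraries alone to 0.113 and a fit of all 30 libraries to 0.398. The effect did not differ between populations at the threshold, with an adjusted p of 0.0740 for the largest difference, -0.60 ± 0.18 for Rag2-null minus c-Kit-high cells, which passed without c-Kit-high deleted library 2 (adjusted p = 0.0397). Reads were counted per gene, so the spliced, active form of the XBP1 message was not told apart from the unspliced form.

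In the knock-down XBP1 went the other way by a small margin. With hairpin Ik4056 it had 98.2, 93.4, 103 and 58.2 RPKM, and with Ik2709 85.4, 84.6, 90.1 and 52.0 RPKM. It had 78.3, 68.2, 82.4 and 47.1 RPKM with Ren713 and 82.2, 77.4, 84.0 and 41.7 RPKM with the empty vector. The groups overlapped, since the fourth library of every construct was low, and the difference of 0.25 ± 0.18 did not pass (adjusted p = 0.413). Within each of the 4 runs of consecutive library numbers, both hairpins lay above the mean of the controls on the log2 scale, by 0.29 to 0.39 for Ik4056 and by 0.09 to 0.23 for Ik2709. With the run as a block the same difference passed (adjusted p = 5.90e-05). That fit called 5575 genes in the knock-down, against 2086 without the block.

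IGJ showed the largest falls. In c-Kit-high cells it had 0.304 and 1.07 RPKM in deleted libraries, against 22.2 and 10.9 RPKM in controls. Both controls lay above both deleted libraries, of which the first rested on 6 implied reads. The difference was -3.33 ± 0.34 (adjusted p = 3.15e-05), or a mean of 0.689 ± 0.544 RPKM against 16.5 ± 7.98 RPKM (SD, n = 2 each). The pair of libraries that share a run, deleted 2 and control 1, differed by -3.48, and the other pair by -3.19. The 7 granulocyte markers summed to 116 to 285 RPKM in deleted libraries and 96.9 to 607 RPKM in controls. None was called, where 17.2% of all genes were. Their median difference was -0.64, against 0.03 over all genes, and their part in the IGJ difference was not tested.

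In total and Rag2-null pro-B cells IGJ was nearly absent with or without Ikzf1. It was listed at 0 in both total pro-B deleted libraries and had 0 and 0.0464 RPKM in controls, the second from 1 implied read. It had 0.0281 and 0.0421 RPKM in Rag2-null deleted libraries, against 0.0478 and 0.159 RPKM in controls, from 2 to 9 implied reads. Neither difference passed, at -0.03 and -0.09 (each ± 0.34, adjusted p = 0.975 and 0.908). No total or Rag2-null library reached 1 RPKM of IGJ, so it passed the filter through c-Kit-high and pre-B libraries. The standard error is pooled over those libraries too. These 2 tests therefore cannot show whether deletion changes IGJ in total or Rag2-null cells. The effect in c-Kit-high cells was more negative than in total pro-B cells by -3.30 ± 0.49 (adjusted p = 0.00224), and Rag2-null minus c-Kit-high was 3.24 ± 0.49 (adjusted p = 0.00254). A gene that is near 0 in the controls cannot fall further, so both contrasts restate the c-Kit-high fall and cannot show that the effect differs.

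The pre-pro-B controls held the highest IGJ levels of the series, and both hairpins lowered them. IGJ had 12.05, 16.6, 14.2 and 15.6 RPKM with Ik4056 and 6.13, 5.78, 5.99 and 7.65 RPKM with Ik2709. It had 43.0, 29.3, 30.5 and 44.6 RPKM with Ren713 and 62.1, 38.9, 52.6 and 34.1 RPKM with the empty vector. All 8 hairpin libraries lay below all 8 controls, by -1.96 ± 0.13 (adjusted p = 2.84e-08), rank 63 of 10744 genes. The hairpins also differed from each other: Ik4056 left more IGJ than Ik2709 by 1.08 ± 0.18 (adjusted p = 0.00316), in 4 of 4 runs. Ikzf1 itself differed between them by -0.23 ± 0.24 (adjusted p = 0.948) without the run as a block. In order of run it had 53.2, 23.7, 31.2 and 51.5 RPKM with Ik4056 and 51.8, 30.8, 40.8 and 60.6 RPKM with Ik2709. IGJ was the 1 member of 3 tested called between hairpins, where 3.33% of genes were called.

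**Figure D3:**
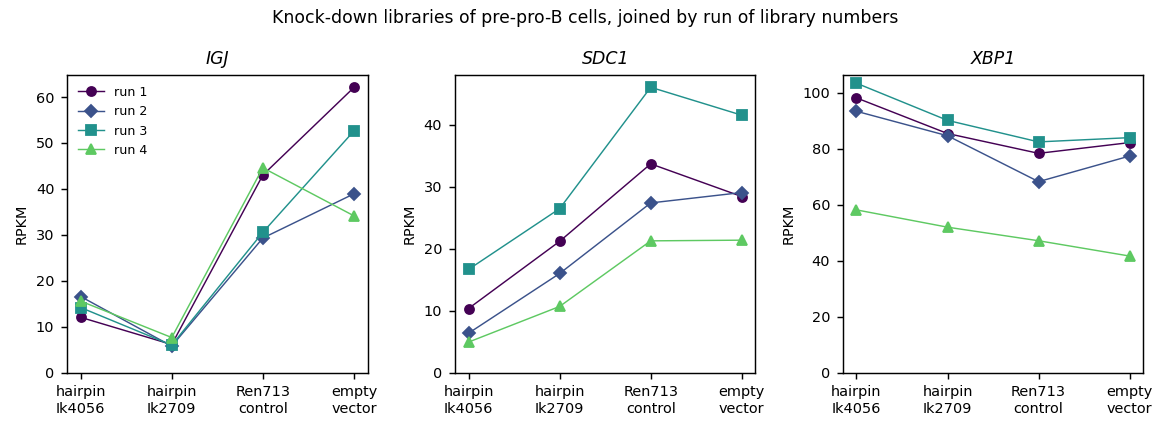
RPKM of IGJ, SDC1 and XBP1 in the 16 pre-pro-B libraries, with constructs on the horizontal axis and lines joining libraries of the same run of library numbers. IGJ is lowest with Ik2709 and SDC1 lowest with Ik4056 in every run, and run 4 holds the low XBP1 value of each construct.

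SDC1 fell in the knock-down and passed in no deletion. It had 10.4, 6.37, 16.7 and 4.94 RPKM with Ik4056 and 21.2, 16.0, 26.5 and 10.7 RPKM with Ik2709. It had 33.7, 27.4, 46.1 and 21.3 RPKM with Ren713 and 28.4, 29.1, 41.6 and 21.4 RPKM with the empty vector. Hairpin and control values overlapped over all runs, from 4.94 to 26.5 and from 21.3 to 46.1 RPKM, but within every run both hairpins lay below both controls. The difference was -1.21 ± 0.24 (adjusted p = 0.00166). Here Ik4056 was the lower hairpin, by -0.95 ± 0.34, which did not pass without the run as a block (adjusted p = 0.205) and passed with it (adjusted p = 5.76e-06). With the block XBP1 also differed between hairpins, by 0.17 (adjusted p = 0.0359), so that 3 members were called there.

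In the deletions SDC1 moved little. It had 22.9 and 23.7 RPKM in total pro-B deleted cells, against 29.7 and 33.5 RPKM in controls, a difference of -0.42 ± 0.20 (adjusted p = 0.162). These groups did not overlap, and the difference passed when the 4 libraries were fitted alone (adjusted p = 0.0236). It had 12.1 and 14.04 RPKM in c-Kit-high deleted cells, against 13.4 and 12.01 RPKM in controls, and the groups overlapped, at 0.03 ± 0.20 (interval -0.41 to 0.48). It had 20.2 and 22.2 RPKM in Rag2-null deleted cells, against 18.5 and 31.9 RPKM in controls, at -0.19 ± 0.20 (interval -0.63 to 0.25). The 2 Rag2-null controls differed so much that leaving out control 1 gave -0.57 (adjusted p = 0.0296) and leaving out control 2 gave 0.19.

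Markers of other cells moved with these comparisons, and their part in the results was not tested. Beside the counts that follow, 23.4%, 17.2% and 22.3% of all genes were called in total, c-Kit-high and Rag2-null cells. Markers of mature B cells moved in both populations in which IRF4 rose. In total pro-B cells 4 of 8 tested rose and 1 fell, with sums over the 9 markers of 250 to 255 RPKM in deleted libraries and 74.9 to 81.7 RPKM in controls. In c-Kit-high cells 3 rose and 1 fell, with sums of 267 to 354 RPKM in deleted libraries and 89.3 to 121 RPKM in controls. In Rag2-null cells, where the IRF4 groups overlapped, 1 rose and 2 fell, with sums of 24.3 to 34.0 RPKM in deleted libraries and 84.1 to 190 RPKM in controls. The list shares Ciita with the B-cell factors described further on. Stromal markers summed to 23.3 to 24.0 RPKM in total pro-B deleted libraries and 66.1 to 101 RPKM in controls, and 3 of 4 tested fell. In Rag2-null cells they summed to 43.5 to 68.3 RPKM in deleted libraries and 6.496 to 13.2 RPKM in controls, and 3 of 4 tested rose, while XBP1 fell in both populations. Lepr was listed at 0 in all of these pro-B libraries.

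Knock-down libraries differed in markers both ways, where 19.4% of all genes were called. Of 6 monocyte and macrophage markers 4 rose and 1 fell, and their sum was 62.0 to 149 RPKM with the hairpins, against 7.56 to 16.2 RPKM in the controls. The granulocyte sum was 114 to 429 RPKM with the hairpins and 21.7 to 90.3 RPKM in the controls, with all 3 tested higher and S100a8 and S100a9 listed at 0 in all 16 libraries. Of the T-cell markers 2 of 3 tested fell and 1 rose (median -0.85), with sums of 50.4 to 117.4 RPKM with the hairpins and 113 to 179 RPKM in the controls. Of 6 plasmacytoid dendritic cell markers 3 fell and 2 rose (median -0.24), with sums of 412 to 863 RPKM with the hairpins and 518 to 1158 RPKM in the controls.

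Across the stages, pre-B cells stood apart by IRF4 and SDC1. IRF4 had 223 and 206 RPKM in pre-B cells, against 56.0 and 70.3 RPKM in c-Kit-high pro-B controls, a difference of 1.76 ± 0.15 (adjusted p = 1.33e-06). SDC1 had 43.2 and 53.8 RPKM in pre-B cells, against 13.4 and 12.01 RPKM in those controls, a difference of 1.84 ± 0.20 (adjusted p = 1.07e-05). PRDM1 rose to 1.81 and 1.88 RPKM in pre-B cells, by 0.58 ± 0.18 (adjusted p = 0.0175), a call that was lost without either pre-B library (adjusted p = 0.0759 and 0.0936) or without control 2 (0.0992). IGJ fell to 2.93 and 6.78 RPKM in pre-B cells, by -1.59 ± 0.34 (adjusted p = 0.00215). XBP1, at 54.3 and 65.5 RPKM in pre-B cells, did not pass (0.20 ± 0.13, adjusted p = 0.233). So 3 of 5 members rose and 1 fell, where 49.0% of all genes were called.

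Set against total pro-B controls, 4 of 5 members were higher in pre-B cells and XBP1 was lower, where 68.8% of genes were called. The differences were 3.29 ± 0.15 for IRF4, 2.43 ± 0.34 for IGJ, 1.30 ± 0.18 for PRDM1 and 0.60 ± 0.20 for SDC1, against -1.23 ± 0.13 for XBP1. The largest adjusted p was 0.0194, for SDC1, which rose to 0.109 without total pro-B control 1 and to 0.147 without pre-B library 2. The pre-B libraries held 6829 and 6970 RPKM of granulocyte markers, with all 7 called above both sets of pro-B controls, and 1913 and 2434 RPKM of plasmacytoid dendritic cell markers. The part of these cells in the pre-B levels was not tested. The pre-B and c-Kit-high libraries come from different runs of library numbers, and pre-B cells are wild type while the pro-B controls are Ikzf1(fl/+) Cd79a(Cre/+), so run, genotype and stage cannot be told apart. Ikzf1 itself had 344 and 309 RPKM in pre-B cells, against 101 and 124 RPKM in c-Kit-high controls.

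Total and c-Kit-high pro-B controls differed in all 5 members, where 50.8% of genes were called. Total pro-B cells had more XBP1 (1.43 ± 0.13) and SDC1 (1.25 ± 0.20), and less IGJ (-4.02 ± 0.34), IRF4 (-1.53 ± 0.15) and PRDM1 (-0.72 ± 0.18), with a largest adjusted p of 0.00529, for PRDM1 (0.0554 without total pro-B control 1). All 7 granulocyte markers and 3 of 5 monocyte markers were lower in the total pro-B controls, and all 4 stromal markers tested were higher. Their part in these differences was not tested, and the populations come from different runs of library numbers, so run and population cannot be told apart. Rag2-null and Rag2-intact pro-B controls differed in none of the 5, where 31.6% of genes were called. These 2 control groups come from different runs of library numbers, so run and Rag2 genotype cannot be told apart. All 4 stromal markers tested were lower in the Rag2-null controls, and their part was not tested. At an unadjusted p under 0.05 from limma, 1 of the 5 was higher in the Rag2-null controls, XBP1 by 0.29 ± 0.13 (adjusted p = 0.108), and after median-ratio scaling XBP1 and IRF4 both passed. Pre-pro-B controls, set against total pro-B controls in a fit of all 30 libraries, had more IGJ (5.35 ± 0.25) and less IRF4 (-4.09 ± 0.13) and XBP1 (-1.04 ± 0.24), where 55.5% of genes were called. Their differences in PRDM1 (-0.19 ± 0.08, adjusted p = 0.0596) and SDC1 (-0.07 ± 0.33, adjusted p = 0.882) did not pass. For PRDM1 the difference passed with a pseudocount of 0.1 (-1.11, adjusted p = 0.00166) and with no filter (0.0428). It was -0.33 without total pro-B control 1. PRDM1 had at most 0.0326 RPKM in these pre-pro-B controls and at most 0.266 RPKM in the total pro-B controls. In the main fit it passed the filter through other libraries only. With so few reads, these tests cannot decide whether PRDM1 differs between these controls. All 6 plasmacytoid dendritic cell markers tested were higher in the pre-pro-B than in the total pro-B controls, and all 4 stromal markers tested were lower. Of 6 monocyte markers 3 were higher and 1 was lower. The part of these markers in the member differences was not tested. Stage, the Ebf1(-/-) genotype, the control hairpin or empty vector carried and the run of library numbers differ together in this comparison. They cannot be told apart.

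Each member had its own order of levels over the 11 groups. IGJ averaged 46.9 RPKM with the empty vector and 36.9 RPKM with Ren713, which overlapped, then 16.5 in c-Kit-high controls and 14.6 with Ik4056, which overlapped, then 6.39 with Ik2709 and 4.85 in pre-B cells, which overlapped. XBP1 was highest in Rag2-null controls, at 173 RPKM, and total pro-B controls, at 141 RPKM, and lowest in c-Kit-high controls, at 51.9 RPKM, and c-Kit-high deleted cells, at 37.8 RPKM. The groups between these pairs overlapped with one another in the order of levels. PRDM1 was highest in c-Kit-high deleted cells, at 2.56 RPKM, then in pre-B cells, at 1.85 RPKM, without overlap. IRF4 ran from 214 RPKM in pre-B through 95.4 in c-Kit-high deleted, 74.5 in total pro-B deleted and 63.1 in c-Kit-high control cells, each without overlap with the next. Below them, Rag2-null and total pro-B groups with 21.1 to 26.4 RPKM overlapped. SDC1 was highest in pre-B cells, at 48.5 RPKM, without overlap with the next, and lowest with Ik4056, at 9.58 RPKM, where it overlapped both c-Kit-high groups.

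Per length, the order of the members within a cell population also changed. In pre-B cells IRF4 was the highest of the 5 by mean RPKM, followed by XBP1, SDC1, IGJ and PRDM1. In pre-pro-B controls XBP1, IGJ and SDC1 were all detected, while IRF4 averaged 0.298 RPKM, from 0.138 to 0.490 over the 8 libraries, and PRDM1 averaged 0.00964 ± 0.0136 RPKM (SD, n = 8). The group means of PRDM1 and IRF4 on the log2 scale correlated over the 11 groups (Pearson's r = 0.760), those of IGJ and IRF4 did so inversely (r = -0.631), and those of XBP1 and PRDM1 inversely (r = -0.611). These values describe groups that share libraries, runs and genotypes, and carry no test.

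The genes whose group means ran most like a member's were found over the same 11 groups among 12272 genes. For IGJ they were SEPT4 (r = 0.954), SETD4 (0.949) and MED7 (0.944), all highest in a pre-pro-B control group. For IRF4 they were CPSF2, SYVN1 and ZFP110 (r = 0.991, 0.991 and 0.990), all highest in pre-B cells, and SYVN1 is an ER ubiquitin ligase of protein quality control. For PRDM1 they were PPP2R5A, EHHADH and SNRK (0.981, 0.965 and 0.964), and for XBP1 ANKRD37, MRPL37 and SLC19A2 (0.940, 0.929 and 0.919). For SDC1 likeness fell off after CDC42SE2 (0.898), with RBM45 and MLX at 0.785 and 0.779.

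The regulators of antibody secretion as a list of 10, IRF4, PRDM1 and XBP1 among them, had 7, 5 and 7 members called in total, c-Kit-high and Rag2-null pro-B cells, where 23.4%, 17.2% and 22.3% of all genes were called. In total pro-B cells 4 rose and 3 fell, with a median difference of 0.68, against 0.03 over all genes. Ell2, the elongation factor that directs secretory immunoglobulin message processing, rose by 3.11 ± 0.27, to 29.5 ± 5.22 RPKM in deleted cells, against 2.53 ± 0.502 RPKM in controls (SD, n = 2 each). Bhlha15 (Mist1), a secretory-cell transcription factor, fell by -1.34 ± 0.22, and Atf6, a sensor of ER stress, rose by 1.23 ± 0.14. In c-Kit-high cells 4 rose, with Ell2 at 1.61 ± 0.27 and Atf6 at 0.52 ± 0.14 beside IRF4 and PRDM1, and XBP1 fell. In Rag2-null cells 4 rose and 3 fell, with Ell2 at 1.28 ± 0.27 and Creb3l2 at 0.99 ± 0.27, but after quantile normalization 2 rose and 2 fell. In the knock-down 5 could be tested and Creb3l2 alone rose, by 0.71 ± 0.17, where 19.4% of all genes were called. With the run as a block 4 of the 5 rose, and after quantile normalization none was called.

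ER chaperones and folding enzymes, many of them known targets of XBP1 and ATF6, fell in total pro-B cells. Of 21 tested, 12 fell and none rose, with a median of -0.42, against 0.03 over all genes and 23.4% of genes called. Quantile normalization gave 9 that fell and scaling by median ratios gave 15. Pdia3, a disulfide isomerase, fell by -0.72 ± 0.15, Sdf2l1 by -0.59 ± 0.18, Ero1l, an ER oxidase, by -0.59 ± 0.17 and Hspa5 (BiP), the main ER chaperone, by -0.58 ± 0.18. In c-Kit-high cells Pdia3 and Txndc11 fell, by -0.73 ± 0.15 and -0.53 ± 0.13, and none rose (median -0.05), though 1 rose after quantile normalization. In Rag2-null cells, where XBP1 fell as well, none of the 21 fell and Fkbp11 rose by 1.48 ± 0.27 (median 0.09). Quantile normalization gave 2 that rose there, and median-ratio scaling 1 that rose and 1 that fell. The tests of a difference in effect from total pro-B cells called 1 of the 21 in c-Kit-high cells and 3 in Rag2-null cells, near the share of all genes called, 6.70% and 13.1%. In the knock-down Fkbp11 rose, by 1.33 ± 0.13, and Creld2, Hyou1 and Pdia4 fell, by -0.49 to -0.33 (median -0.06), and with the run as a block 1 rose and 7 fell. Of all genes, 17.2%, 22.3% and 19.4% were called in c-Kit-high, Rag2-null and, without the block, knock-down cells.

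**Figure D4:**
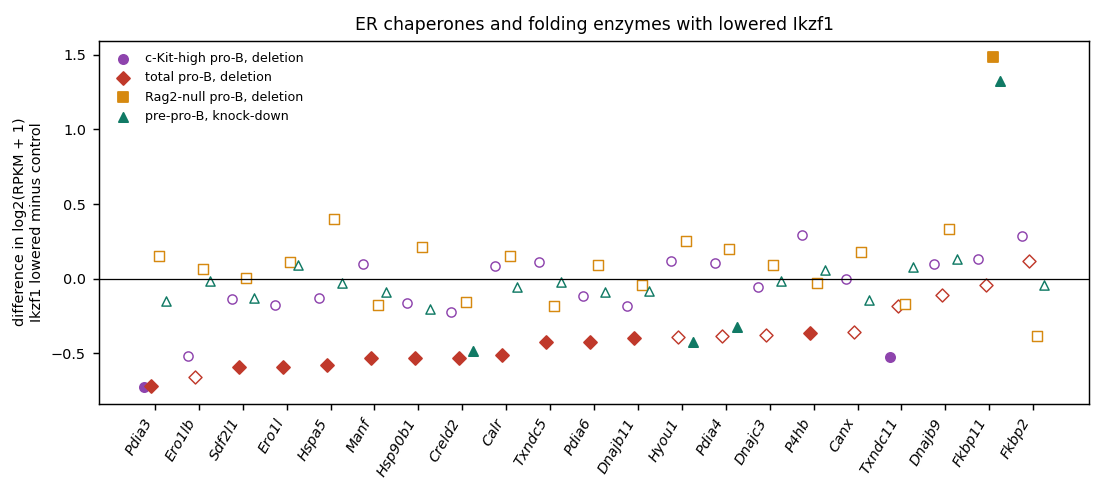
Difference in log2(RPKM + 1) with Ikzf1 lowered minus control for 21 ER chaperones and folding enzymes, ordered by the difference in total pro-B cells. Filled symbols passed an adjusted p of 0.05 in that population. The total pro-B symbols lie below 0 for all genes but Fkbp2, with 12 filled, while 1 Rag2-null symbol is filled, that of Fkbp11.

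Genes of ER translocation, transport and ER-associated degradation were called in both directions in each deletion. In total pro-B cells 3 of 29 rose and 6 fell, where 23.4% of all genes were called, or 2 and 7 after median-ratio scaling. Tram1, of the translocation channel, rose by 1.33 ± 0.15, the transport coat gene Sec24d and the degradation gene Herpud1 fell by -1.16 ± 0.16 and -0.59 ± 0.14, and Serp1 rose by 0.55 ± 0.14. In c-Kit-high cells 3 rose and 1 fell, where 17.2% of genes were called: Derl3, of ER-associated degradation, rose by 1.37 ± 0.25, Tram1 by 0.67 ± 0.15 and Kdelr1 by 0.51 ± 0.15, and Herpud1 fell by -0.45 ± 0.14. In Rag2-null cells 2 rose and 4 fell, where 22.3% of genes were called, with Derl3 at 1.33 ± 0.25, Herpud1 at -1.19 ± 0.14, Ssr4 at -0.59 ± 0.15 and Sec61b at -0.47 ± 0.13. Quantile normalization gave 2 up and 1 down there, and median-ratio scaling 1 up and 5 down. In the knock-down 2 of 28 rose and none fell, where 19.4% of genes were called: Tram2 by 0.32 and Edem1 by 0.22. With the run as a block 5 rose and 3 fell, and 1 rose under either other scaling. The medians ran from -0.17 in total pro-B cells to 0.02 in c-Kit-high cells.

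Of 10 sensors and targets of the stress response, Trib3 fell in all 3 deletions, by -1.11, -1.57 and -0.93 in total, c-Kit-high and Rag2-null cells, and Atf6 rose in all 3, by 1.23, 0.52 and 0.63. No other gene of the list was called in total and c-Kit-high cells, though 2 fell in total pro-B cells after quantile normalization. In Rag2-null cells Ern1, which encodes the IRE1 enzyme that splices the XBP1 message, rose by 1.12 and Atf4 fell by -0.54, and quantile normalization left 1 up and 1 down. In the knock-down Chac1 and Asns rose, by 0.62 and 0.44, with 4 up under the run as a block and 1 up after median-ratio scaling. The shares of all genes called in the main fits were 23.4%, 17.2%, 22.3% and 19.4% in total, c-Kit-high, Rag2-null and knock-down cells.

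Of 10 surface and secreted plasma-cell products, IGJ and SDC1 among them, 8 could be tested in the deletions. Over all genes, 23.4%, 17.2%, 22.3% and 19.4% were called in total, c-Kit-high, Rag2-null and knock-down cells. In total pro-B cells 3 rose and 1 fell: Cd38 rose by 2.98 ± 0.26, Tnfrsf13b (TACI) by 1.61 ± 0.16 and Cxcr4 by 0.65, and Mzb1, an ER protein of antibody assembly, fell by -2.42 ± 0.29. In c-Kit-high cells Cd38 and Tnfrsf13b rose, by 1.79 ± 0.26 and 0.62 ± 0.16, IGJ fell, and Cd93 fell by -0.98. In Rag2-null cells none rose and 4 fell, Mzb1 and Cd93 by -1.25 each, Slamf7 by -0.91 and Cxcr4 by -0.49, and 2 fell after quantile normalization. In the knock-down 2 of 7 rose, Cd28 by 1.75 ± 0.13 and Tnfrsf13b by 0.68, and 3 fell: IGJ, SDC1 and Mzb1 by -1.86 ± 0.26. Mzb1 averaged 4.20 ± 1.37 RPKM with Ik4056 and 3.14 ± 1.28 RPKM with Ik2709, against 16.0 ± 6.40 RPKM with Ren713 and 17.2 ± 7.64 RPKM with the empty vector (SD, n = 4 each).

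Among the transcription factors that hold the B-cell state against secretion, Bach2, which represses PRDM1, rose by 1.82 ± 0.20 in total and by 0.99 ± 0.20 in c-Kit-high pro-B cells, where IRF4 rose too. In Rag2-null cells Bach2 did not pass (-0.15 ± 0.20, adjusted p = 0.675). The list of 12 had 4 up and 4 down in total pro-B cells, with Ciita at 1.82, Id3 at -1.74 and Pax5 at 0.84. In c-Kit-high cells 4 rose and 1 fell, with Ciita at 1.20, Spi1 at 0.70, Irf8 at 0.67 and Ebf1 at -0.64, and under either other scaling 4 rose and 2 fell. In Rag2-null cells 3 rose and 1 fell: Spib fell by -2.08 ± 0.20, and Bcl6, a repressor of plasma-cell formation, Spi1 and Pax5 rose by 1.504, 0.69 and 0.69. In the knock-down 5 of 9 rose and 1 fell, with Irf8 at 1.67 ± 0.18, Bcl6 at 1.23 ± 0.16, Bach2 at 0.68 and Id3 at 0.59, and with the run as a block 5 rose and 3 fell. Of all genes, 23.4% were called in total, 17.2% in c-Kit-high, 22.3% in Rag2-null and, without the block, 19.4% in knock-down cells.

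IRF4 was set beside its family and the genes of its step in pre-B cells. The shares of all genes called were 23.4% in total, 17.2% in c-Kit-high, 22.3% in Rag2-null and 19.4% in knock-down cells. Of 8 family members tested, 2 rose and 3 fell in total pro-B cells, where Irf2 rose by 0.99 beside IRF4 and Irf5, Irf1 and Irf8 fell by -1.24, -0.68 and -0.60. In c-Kit-high cells IRF4 and Irf8 rose, Irf8 by 0.67, and Irf1 and Irf5 fell by -0.87 and -0.82. In Rag2-null cells Irf7, Irf9 and Irf2 rose by 1.41, 0.86 and 0.58, and Irf1 fell by -0.56. In the knock-down 3 of 8 rose and none fell, Irf8 by 1.67 and Irf5 by 0.67 among them, and 4 rose with the run as a block. Of 13 genes of the IRF4 step in pre-B cells, 1 rose and 6 fell in total pro-B cells, with Rag1 at -3.61, Rag2 at -2.60, Ccnd3 at -1.75 and Blnk at -1.34. In c-Kit-high cells Irf8 rose and 4 fell, Rag2 by -1.74, Blnk by -0.88, Ccnd3 by -0.86 and Ikzf1 by -0.58, and 7 fell after quantile normalization. In Rag2-null cells Bcl6 rose and 4 fell, Ccnd3 by -1.02, Ikzf1 by -0.62, Syk by -0.58 and Cxcr4 by -0.49, or 2 rose and 3 fell after quantile normalization. In the knock-down 4 of 11 rose and 5 fell. Igll1 rose by 2.61 beside Irf8 and Bcl6, and Ikzf1 was among those that fell. Ikzf1 is the gene deleted or silenced, so its fall in these counts is no finding about the list.

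SDC1 was set beside the other syndecans, with 19.4% of all genes called in the knock-down and 23.4%, 17.2% and 22.3% in total, c-Kit-high and Rag2-null cells. In the knock-down Sdc4 rose by 1.46 ± 0.11 and Sdc3 fell by -0.59, as SDC1 fell. In the deletions Sdc4 rose in c-Kit-high and Rag2-null cells, by 0.51 and 0.74. Sdc2 and Sdc3 fell in total pro-B cells, by -0.85 and -1.11, while Sdc3 rose in Rag2-null cells, by 0.96, and 1 syndecan rose there after quantile normalization.

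In pre-B cells against c-Kit-high pro-B controls, where 49.0% of all genes were called, 7 of the 10 regulators rose and none fell. Ikzf3 (Aiolos) rose by 4.00 ± 0.91, Bhlha15 by 1.54 ± 0.22 and Atf6 by 1.25 ± 0.14, beside IRF4. The median of this list was 1.12, against -0.11 over all genes. Of the 21 chaperones and folding enzymes 6 rose and 8 fell, or 7 and 5 after median-ratio scaling, with Txndc11 at 2.37 ± 0.13, Ero1lb at 1.34, Sdf2l1 at -1.22 ± 0.18 and Fkbp11 at -1.05. Of the 29 genes of translocation and degradation 10 rose and 4 fell, a share near that of all genes, or 11 and 2 after median-ratio scaling, with Edem3 at 2.76, Tram2 at 2.42, Herpud1 at 1.62 and Derl3 at 1.39. Of the 8 surface and secreted products tested 4 rose and 2 fell, with Cd38 at 3.71 ± 0.26 and Cxcr4 at 1.27 beside SDC1 and IGJ.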

How the data were processed

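RNA from 30 libraries was sequenced from poly(A)-selected, strand-specific, single-end libraries, per the labels' protocols. The authors deposited RPKM per gene model, and the submitters' processing notes name TopHat 1.4.1, HTSeq 0.5.3, DESeq 1.8.3 and mm9. Low RPKM values were whole multiples of the worth of 1 read within 0.1 read, which gave the implied reads and the implied depth of 2.3 to 36.2 M reads per library. In 4 libraries there were 2 step sizes, and implied reads there are approximate.

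Tests used limma 3.58.1 in R 4.3.3 with trended, robust moderation on log2(RPKM + 1), which understates changes of low genes. Genes needed 1 RPKM in at least 2 libraries of the fit, and p-values were adjusted by Benjamini-Hochberg over all genes of the fit. The 14 pro-B and pre-B libraries, the 16 pre-pro-B libraries and all 30 libraries were fitted in separate models. The procedure was tested on simulated data. Replicates of a group were averaged as deposited, since no 2 of the 30 libraries were identical.

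The members and the gene lists were chosen with earlier results of these data known. In the lists described for a comparison, the genes named are the called ones with the largest change, up to 4, or all called ones where there were 5 or fewer. At least 1 gene that meets this rule is not reported here. Bach2 in Rag2-null cells, Pax5 as a marker, Ebf1, Lepr, S100a8 and S100a9 were named outside that rule, after their values were seen. Likeness is the correlation of group means over 11 groups.

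The knock-down libraries fall into 4 runs of consecutive library numbers, each holding all 4 constructs, and the series text describes 4 replicates of 2 controls and 2 hairpins. Deviations from the group means correlated in all 24 same-run pairs (lowest r 0.52, median 0.77). Between runs the median was -0.24. Deviations sum to 0 within each construct, which pushes the between-run value below 0, so it is no independent baseline. The runs were therefore taken as pairs for the within-run differences and for the fit with the run as a block. The main knock-down and hairpin fits carry no block. Total pro-B and Rag2-null deletion comparisons each lie within 1 run. In c-Kit-high cells only deleted library 2 and control 1 share a run. That pair and the other differed by -0.658 and -0.255 for XBP1, 0.746 and 0.446 for IRF4, and 0.753 and 1.057 for PRDM1. Alternatives changed the pseudocount, filter, normalization, moderation, libraries fitted and replicates left out, and added the run as a block. Sequences are RefSeq promoters on GRCm38.p6, matched for 5 of 5 members.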

Additional observations from a re-analysis of the deposited data

Results flagged for a closer look

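In the empty-vector group the run 4 library had the low XBP1 value, 41.7 RPKM, and its gap to the nearest library was 0.845 of the range of the group. In the Ik2709 group the run 4 library, at 52.0 RPKM of XBP1, had a gap of 0.856. For PRDM1 the gap was 0.8294 in the empty-vector group, where 1 library held 3 implied reads, just past the critical value for 4 libraries, and 1.000 in the Ik2709 group, where 1 library held 2 implied reads and the others none. Chance flags about 1 in 20 groups of continuous values, a rate that does not apply to PRDM1 with its few reads. A lone library with reads among zeros always gives a gap of 1.000.

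The tests of a difference in deletion effect between pro-B populations called IGJ and IRF4. For IGJ the contrast was -3.30 for c-Kit-high minus total pro-B cells and 3.24 for Rag2-null minus c-Kit-high cells. IGJ had at most 0.0464 RPKM in total pro-B controls and at most 0.159 RPKM in Rag2-null controls, so it could hardly fall there. Both IGJ contrasts therefore restate its fall in c-Kit-high cells and cannot show that the effect of deletion differs. For IRF4 the difference in effect was -1.18 for c-Kit-high minus total pro-B cells and -1.84 for Rag2-null minus total pro-B cells. Of the c-Kit-high libraries only deleted library 1 shares a run of library numbers with the total pro-B libraries. The Rag2-null libraries form a run of their own. Run and population therefore cannot be told apart.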

How the results depend on the processing

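The calls of XBP1 and IRF4 in total pro-B cells, XBP1 in Rag2-null cells, IGJ in c-Kit-high cells, and IGJ and SDC1 in the knock-down were kept under every alternative run. With the compared libraries fitted alone, 2 members were called in c-Kit-high cells and 1 in Rag2-null cells, where PRDM1 was under the filter. A stricter filter of 3 RPKM, which leaves PRDM1 out, gave 1 in Rag2-null cells. Median-ratio scaling gave 2 between Rag2-null and Rag2-intact controls. Rag2-null against total pro-B effects gave 2 without trended, robust moderation and 2 with all libraries in 1 fit. With all libraries in 1 fit the XBP1 call in c-Kit-high cells was lost. The replicate block gave 3 between hairpins and changed no member call in the knock-down other than that of XBP1. Leaving out 1 replicate gave 2 to 3 calls in c-Kit-high cells, 1 to 3 in Rag2-null cells, 1 to 2 between hairpins, 0 to 1 between Rag2-null and Rag2-intact controls, 1 to 2 for Rag2-null minus total effects and 1 to 2 for Rag2-null minus c-Kit-high effects.

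Signs turned only in differences that had not been called. For Rag2-null minus c-Kit-high effects, PRDM1 was 1.04 with a pseudocount of 0.1 and 0.17 after quantile normalization. Quantile normalization also gave -0.033 for SDC1 in c-Kit-high deletion, 0.037 for PRDM1 between Rag2-null and Rag2-intact controls and 0.061 for XBP1 in Rag2-null minus total effects. Over replicates left out, PRDM1 in total pro-B deletion ran from -0.090 to 0.18, SDC1 in c-Kit-high deletion from -0.065 to 0.13, IRF4 and SDC1 in Rag2-null deletion from -0.20 to 0.065 and from -0.57 to 0.19, and XBP1 between hairpins from -0.0081 to 0.36. Between Rag2-null and Rag2-intact controls PRDM1 ran from -0.20 to 0.067 and SDC1 from -0.74 to 0.017. For Rag2-null minus total effects SDC1 ran from -0.15 to 0.61 and IGJ from -0.13 to 0.015. For Rag2-null minus c-Kit-high effects PRDM1 ran from -0.23 to 0.14 and SDC1 from -0.60 to 0.15. SDC1 in pre-pro-B minus total pro-B controls ran from -0.16 to 0.020. The cause was not tested.

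Over all genes, hairpins differed in 358 genes, against 237 with the stricter filter, 163 with the 8 libraries alone and 2407 with the replicate block, and the knock-down in 2086, against 5575 with the block. Rag2-null and Rag2-intact controls differed in 3777 genes, against 1954 with all libraries. With compared libraries alone, c-Kit-high deletion had 1350 genes against 2049, Rag2-null deletion 1547 against 2667, and Rag2-null minus c-Kit-high effects 276 against 756. Leaving out the pre-B libraries, which carry granulocyte markers, was chosen after seeing the data and changed no member's call. With 2 libraries a group, and under 10 implied reads for IGJ in several of them, small changes of IGJ and PRDM1 were not detectable.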
